A study of Mus musculus and Homo sapiens with 10 samples.

Results

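The 8 mouse libraries of the series came from 4 cultures of E14, an established mouse embryonic stem cell (mESC) line, and the culture labels fall into 2 sets, cultures 10 and 11 and cultures 35B and 35C. The comparison described here was between these sets: all libraries labelled 10 or 11 formed one set and all those labelled 35B or 35C the other, which placed 4 libraries in each and used 8 of the 10 libraries of the series. Each culture gave an untreated control library and a library of cells given vitamin C (vitC) at 100 µg/ml for 24 h, so each set held 2 controls and 2 vitC libraries. The labels give no genetic change for any of these cells, which were grown without feeder cells in serum-free 2i media with LIF and sequenced from total RNA. 2i media contains an inhibitor of MEK, which silences ERK signalling, and an inhibitor of GSK3, which lets β-catenin switch on WNT target genes, and both sets received it. The sources do not say what set the cultures apart (a passage, a thaw, a day or a library kit), so these possibilities cannot be told apart here. The labels name either ribosomal RNA depletion or mRNA isolation without saying which library received which, and the methods name depletion. Libraries of 1 culture are not independent, only 2 cultures stood on each side, and nothing says that the cultures of a set were started separately, so p-values measure the spread between these libraries.

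mESCs in 2i media are held in a naive state by a network of transcription factors, among them Pou5f1, Sox2, Nanog and Esrrb, and their DNA is poorly methylated. Retroelements such as L1 elements and endogenous retroviruses (ERVs) are held back in these cells by histone H3 lysine 9 methylation as well as by DNA methylation. Germ cell genes and imprinted genes, of which 1 parental copy is silenced, are the genes best known for their dependence on DNA methylation, and TET enzymes, which need vitC for full activity, remove it.

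The libraries held between 3354852 and 6921305 recovered gene reads and between 2321035 and 5124928 repeat subfamily counts, with ranges that overlapped between the sets. All 7 markers of embryonic stem cells were expressed in each library, with a summed level of 4746 to 5293 RPM (recovered reads per 1000000 gene reads of the library) in cultures 10 and 11 and of 4951 to 5176 in cultures 35B and 35C. Of 9 fibroblast markers, Dcn and Prrx1 had no read in any library, and the sum was 5.97 to 14.5 RPM in cultures 10 and 11 and 11.6 to 17.8 in cultures 35B and 35C. The sum of 3 mesoderm markers was 20.9 to 24.7 in cultures 10 and 11 and 7.17 to 12.4 in cultures 35B and 35C, but of these T alone was lower (-1.11 on the deposited log2-like scale), Eomes was higher (0.16) and Mixl1 did not pass the test (0.02). The sum of 4 neural markers was 88.6 to 104.1 and 130.3 to 149.5, and of these Tubb3 alone passed (0.56), with Nes at -0.06, Sox1 at 0.08 and Pax6 at 0.12. The sum of 6 primitive endoderm markers was 6.55 to 11.2 and 3.12 to 6.65, with Dab2 (-0.50) and Pdgfra (-0.24) lower, Sox7 higher (0.27), Gata4 and Sox17 not past the threshold, and Gata6 too low to be tested. The part of these markers in the results below was not tested. The control library of culture 10 stood apart from the rest of its set in the make-up of its repeat counts, and class shares are therefore given with and without it.

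Libraries of different sets differed more than any of the libraries within a set. Over 6956 genes with a mean deposited value of at least 8, the SD of the differences between 2 libraries of the same set and treatment was 0.105 to 0.127 on the deposited log2-like scale. Between the control and the vitC library of 1 culture it was 0.135 to 0.150. Between libraries of different sets with the same treatment it was 0.228 to 0.295, and between 20 and 54 genes differed by at least 1. Within a set and treatment, at most 1 gene differed by that much. The plot of library pairs shows that the ranges of the within-set and between-set pairs do not meet.

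**Figure D1:**
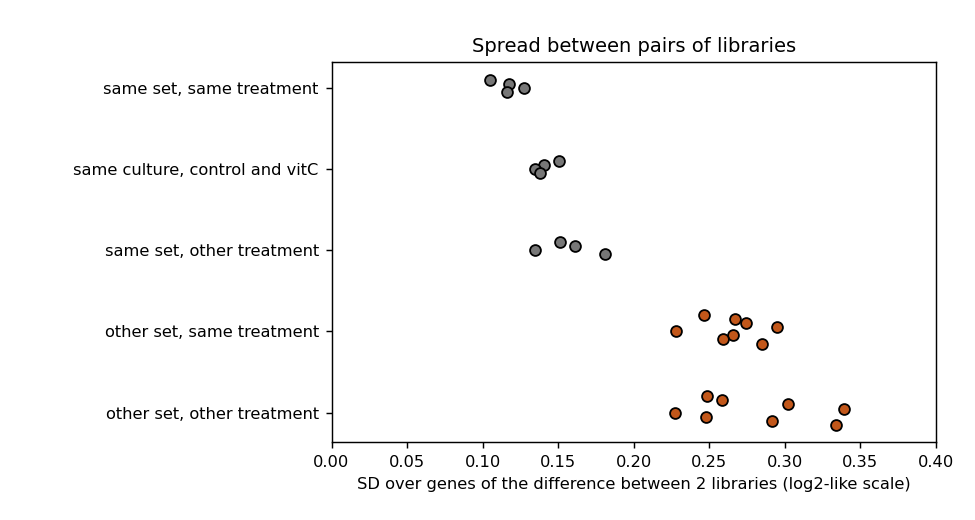
Each point is a pair of libraries and the x axis is the SD over 6956 genes of their difference on the deposited log2-like scale, with pairs sorted by whether they share the set, the culture and the treatment. Pairs within a set lie at 0.181 or below and pairs across sets at 0.228 or above.

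In the fit across genes, with set and treatment as terms, 2772 of 14631 genes were higher and 3152 were lower in cultures 35B and 35C (limma, adjusted p under 0.05), which is 18.9% and 21.5% of those tested. These shares are the background against which the gene lists are read. Fewer cells of a type and less RNA per cell cannot be told apart in such bulk samples. Most differences were small, and the median over all genes was -0.01. In 15.3% of genes all 4 libraries of cultures 35B and 35C lay above all 4 of cultures 10 and 11, and in 16.8% they lay below. A difference of at least 1 was seen in 2 called genes that were higher (0.0137% of those tested) and in 44 that were lower (0.301%). The libraries of the sets did not overlap for any of these 46 genes, and each was called in the same direction in controls alone, in vitC libraries alone, with culture as a random block, with 1 value per culture, and by edgeR on the recovered reads. The 46 were picked by call and size in these same libraries, so much of this agreement followed from the choice. The deposited scale understates the change of genes with few reads. With recovered reads as input, edgeR gave 218 called genes higher by at least 2-fold and 513 lower, of 12112 tested, and 23 higher and 105 lower by at least 4-fold. Controls alone, 2 libraries against 2, gave 1018 higher (6.96%) and 1453 lower genes (9.93%).

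The difference was related to transcript length across genes. In the tenth of genes with the shortest transcripts (median 834 bases) the median difference was 0.06, in the tenth with the longest (median 8254 bases) it was -0.14, and Spearman's rho across 13075 genes, which are not independent replicates, was -0.30. For GC content rho was 0.08. Its part in any single result was not tested, but a fit after removing each library's dependence on length and GC content, chosen after seeing the data, called 2819 genes higher (21.6% of 13075) and 2461 lower (18.8%), and its counts are given for the lists where length stands apart.

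On the deposited scale the largest falls were seen in Lars2 and Peg10, whereas by the ratio of mean RPM several genes described below fell further. Lars2 (mitochondrial leucyl-tRNA synthetase, chr9:123366927-123462666, mm10) stood at 791 and 520 RPM in the controls of cultures 10 and 11 and at 542 and 261 in their vitC libraries. In cultures 35B and 35C it stood at 45.0 and 132.5 in controls and at 73.9 and 110.0 with vitC. The lowest library of cultures 10 and 11 was thus still above the highest of cultures 35B and 35C, and the ratio of the means was 5.85. On the deposited scale the difference was -2.25 (standard error 0.22, limma adjusted p = 2.929e-07), with -2.68 in controls alone and -1.81 in vitC libraries alone. Gm15564, on chromosome 16, had 53.2 to 158.8 RPM in cultures 10 and 11 and 4.23 to 22.2 in cultures 35B and 35C. The repeat subfamily SSU-rRNA_Hsa, of small subunit rRNA, held 17750, 11820, 8710 and 3701 CPM (counts per 1000000 of the TMM-scaled subfamily total) in the control and vitC libraries of culture 10 and then of culture 11, and 464, 1018, 2260 and 1936 in those of 35B and then of 35C. Lars2, Gm15564 and SSU-rRNA_Hsa thus put all 8 libraries in the same order. Whether rRNA-like reads made up part of the Lars2 and Gm15564 counts was not tested.

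Peg10 (chr6:4747306-4760517) is an imprinted gene derived from a retrotransposon, expressed from the paternal copy. It was at 533 and 388 RPM in the controls of cultures 10 and 11 and at 681 and 525 with vitC. In cultures 35B and 35C it was at 148.3 and 85.4 in controls and at 145.2 and 79.5 with vitC. The difference was -2.02 (standard error 0.14, limma adjusted p = 3.71e-09), and a second split was seen within cultures 35B and 35C, where both 35B libraries were above both 35C libraries.

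Tet2 (chr3:133463679-133545139), 1 of the 3 TET dioxygenases that oxidise 5-methylcytosine, went the other way. It stood at 57.6 and 80.8 RPM in the controls of cultures 10 and 11, at 36.7 and 55.1 in their vitC libraries, and between 117.4 and 131.6 in all 4 libraries of cultures 35B and 35C. The libraries of cultures 35B and 35C were close to each other and all higher, and the difference was 0.90 (standard error 0.09, limma adjusted p = 1.7e-07). Tet1 and Tet3 did not pass the test, with differences of 0.15 and -0.13.

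Dazl (chr17:50279395-50293636), which encodes an RNA-binding protein of germ cells, was lower in cultures 35B and 35C within each treatment. Its controls held 24.6 and 16.2 RPM in cultures 10 and 11 and 6.68 and 6.65 in cultures 35B and 35C, the latter from 30 and 46 reads. Its vitC libraries held 98.3 and 69.0 in cultures 10 and 11 and 22.6 and 27.0 in cultures 35B and 35C. Since every vitC library was above the control of its culture, the sets overlapped when treatments were mixed and did not overlap within a treatment. The difference was -0.93 (standard error 0.10, limma adjusted p = 4.683e-07).

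Among the 12 largest rises were Slc38a1, a glutamine transporter (1.20, standard error 0.05), and Rasgrp2, an exchange factor for Rap GTPases (1.09, standard error 0.06). Slc38a1 stood at 84.1 to 108.8 RPM in cultures 10 and 11 and at 244 to 265 in cultures 35B and 35C. Trib3, Pck2, Nupr1, Cebpb and Chac1, which respond to amino acid shortage, rose by 0.88 to 0.98. Thy1, a surface glycoprotein, and Tmsb4x, which binds actin monomers, were higher by 0.84 each, Thy1 from as few as 7 to 11 reads per library in cultures 10 and 11. AC139347.1, for which no position was matched, was higher by 0.96.

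The 12 largest falls held Ablim1, an actin-binding LIM protein, which was at 111.2 to 136.1 RPM in cultures 10 and 11 and at 15.6 to 19.07 in cultures 35B and 35C, a 7.05-fold ratio of means. They also held Tgfbr3, a co-receptor for TGF-β, Plk2, a polo-like kinase, the phosphatase gene Ptpn14, Pdzrn4, the WNT target Sp5 and the WNT effector Lef1, with differences of -1.69 to -1.40. Htr5a, a serotonin receptor gene, had 130 to 338 reads per library in cultures 10 and 11 and 10 to 16 in cultures 35B and 35C, a difference of -1.67. A gene whose symbol had been turned into a date in the file (Sep-08) fell by 1.37.

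**Figure D2:**
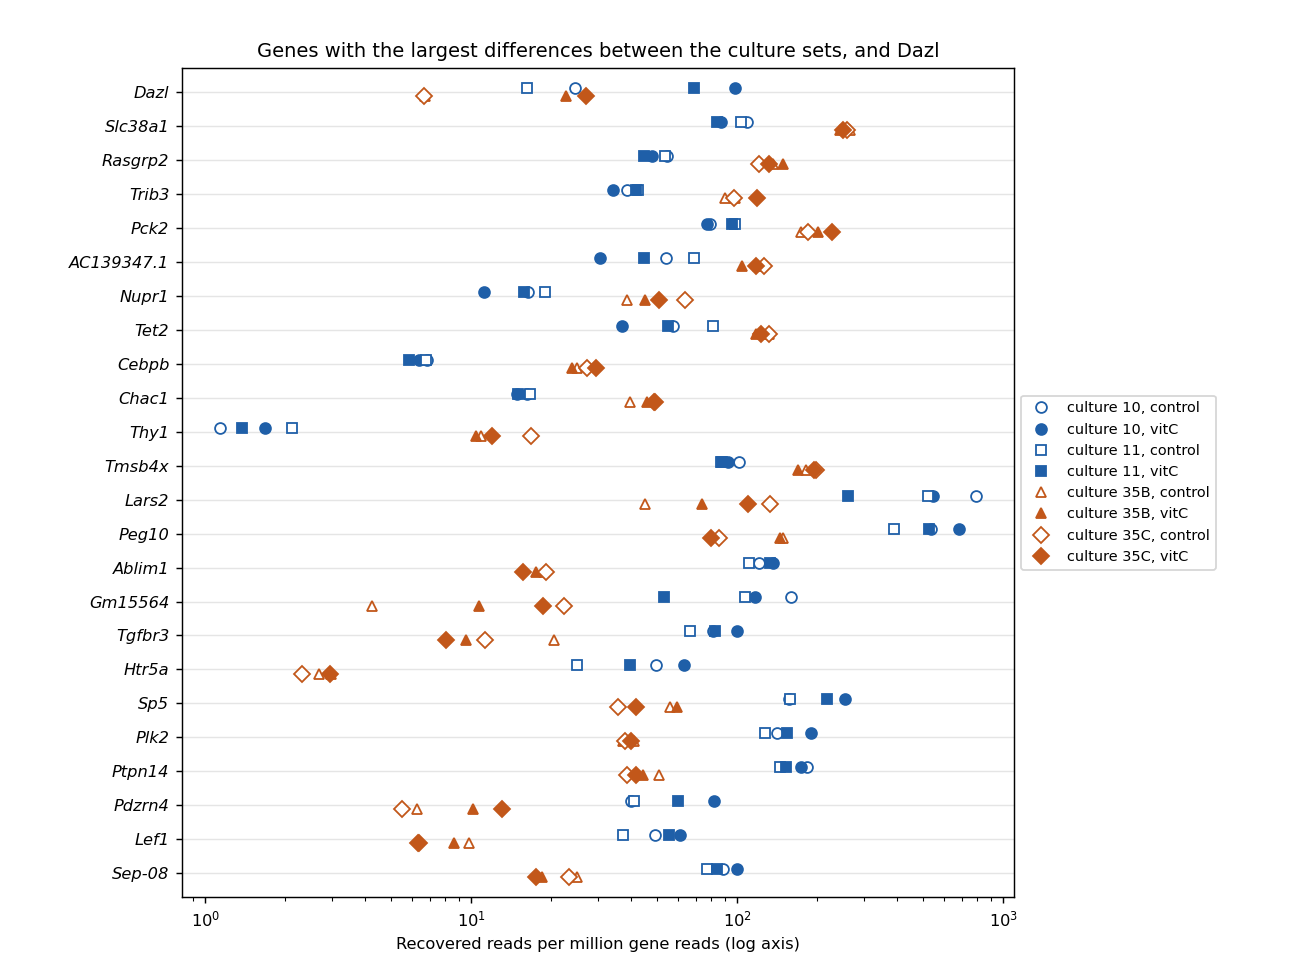
Each row is a gene and each point a library, with recovered RPM gene reads on a log x axis, open symbols for controls, filled symbols for vitC libraries, blue for cultures 10 and 11 and orange for cultures 35B and 35C. The colours are separate in all rows but Dazl, where they are separate within each treatment.

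Genes that respond to amino acid shortage through the transcription factor ATF4 were mostly higher in cultures 35B and 35C. Of 39 list members tested, 33 were higher, 2 were lower (Ddit4 and Slc38a2) and 4 did not pass the test, and the median difference was 0.46 against -0.01 over all genes. Atf4 itself stood at 275 to 296 RPM in cultures 10 and 11 and at 365 to 436 in cultures 35B and 35C (difference 0.46, standard error 0.05). Enzymes of serine synthesis were higher together: Psph by 0.83, Psat1 by 0.77 and Phgdh by 0.70. So were Mthfd2 and Shmt2 of mitochondrial one-carbon metabolism, by 0.79 and 0.56, and the amino acid transporters Slc7a3 and Slc7a5, by 0.81 and 0.65. Asns, asparagine synthetase, is a classical ATF4 target and was at 933 to 1107 RPM in cultures 10 and 11 and at 939 to 1072 in cultures 35B and 35C (difference -0.05). In controls alone 30 of the 39 were higher and none was lower, and in the fit corrected for length and GC content 34 were higher and 1 lower.

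ATF4 binds, with C/EBP partners, a composite element whose core can be written TGATGNAA. The element was looked for after the values had been seen, on both strands of the RefSeq promoter windows (GRCm38.p6, 250 bases before to 50 after a start), of which 3.97% held it. Of 32 tested list members with a window, 11 held it (34.4%), against 2.65% of the 9874 tested genes with a window. The following windows of 30 bases are shown for the 4 members with the largest differences among these 11, written 5′ to 3′ along the gene, with the element in capitals (some windows hold its reverse complement).
Trib3, chr2:152344028-152344057, minus strand: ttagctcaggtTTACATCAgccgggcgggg
Nupr1, chr7:126625562-126625591, minus strand: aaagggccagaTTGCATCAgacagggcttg
Chac1, chr2:119351038-119351067, plus strand: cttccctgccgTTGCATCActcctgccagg
Pycr1, chr11:120643833-120643862, minus strand: tgccctgtgtaTGATGCAAtgcacaaggct
Asns, which did not pass the test, also held the element:
Asns, chr6:7693214-7693243, minus strand: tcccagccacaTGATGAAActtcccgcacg
The element did not sort the members: 9 of the 11 with it were higher, with a median of 0.41, as were 17 of the 21 without it, with a median of 0.49. A match says only that these letters are present.

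Genes of a joint list of sterol and fatty acid synthesis were also mostly higher. Of 33 tested genes 25 were higher and 2 lower, with a median of 0.19. Among them were Cyp51, lanosterol demethylase, at 103.0 to 125.7 against 172.0 to 192.3 RPM, and Pmvk, phosphomevalonate kinase, at 10.6 to 16.1 against 23.6 to 30.8, both with a difference of 0.52. The 2 that fell were fatty acid enzymes, Elovl6 (-0.33) and fatty acid synthase, Fasn (-0.28). Fatty acid genes thus went both ways: Acaca (0.10) and Acly (0.09) did not pass, and Fads1 (0.17) and Fads2 (0.49) were higher.

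Of 64 replication-dependent histone genes and relatives tested, 62 were higher in cultures 35B and 35C, with a median of 0.38 and a narrow range. Hist4h4 stood at 213 to 271 RPM in cultures 10 and 11 and at 369 to 413 in cultures 35B and 35C (difference 0.63, standard error 0.05). Hist1h3g and Hist1h2bh followed, with 0.57 and 0.54. The member that fell was H1f0 (-0.16), a linker histone made outside of replication, which was called neither in vitC libraries alone nor under several other settings. These genes are short (median 579 bases, against 3269 over all genes), their transcripts mostly lack poly(A) tails, and reads from near-identical copies may have been split between them, so single members are uncertain. After correction for length and GC content 61 of 64 were higher and the median was 0.28. The share of non-polyadenylated RNA that each library caught was not tested.

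Nuclear-encoded subunits of the respiratory chain were higher in 41 of 74 cases and lower in none, with a median of 0.18. Sdhb, of complex II, stood at 75.7 to 94.8 against 135.6 to 146.1 RPM (difference 0.57, standard error 0.05), and Atp5o of the ATP synthase and Uqcrq of complex III were higher by 0.51 and 0.47. Cytosolic ribosomal protein genes, which are equally short, were higher in 21 and lower in 3 of 80 cases, the former somewhat above and the latter far below the share of all genes, with a median of 0.04. After correction for length and GC content the respiratory chain had 35 higher and 1 lower gene with a median of 0.12, and the ribosomal proteins 13 higher and 12 lower with a median of 0.00.

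Listed targets of p53, the DNA damage and stress-responsive transcription factor, were mostly lower in cultures 35B and 35C. The list was chosen with earlier results known and does not hold every p53 target. Of 25 tested genes 22 were lower and 2 higher, and the median was -0.40. After Plk2, the largest were Trp53inp1, at 635 to 775 against 277 to 299 RPM (difference -1.20, standard error 0.05), and Cdkn1a, the cell cycle inhibitor p21, at 256 to 334 against 127.6 to 140.7 (difference -1.07, standard error 0.05). Ccng1, Btg2, Zmat3 and Phlda3 were lower by 0.69 to 0.86 in size, and Mdm2, the ligase that degrades p53, stood at 160 to 184 against 105.5 to 116.0. The 2 higher genes were Trp53 itself (0.16), which codes for p53, and Bax (0.12), both small and lost under several settings. In controls alone 17 were lower and none higher.

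Genes of a joint list of ERK and WNT feedback were lower more often than higher. Of 31 tested, 18 were lower and 6 higher, with a median of -0.21. Sp5 stood at 157 to 255 against 35.5 to 59.3 RPM (difference -1.62), Axin2, a negative regulator of β-catenin, at 250 to 367 against 118.9 to 139.2 (difference -1.11), and the WNT receptor ligase gene Znrf3 was lower by 0.56 in size. Its paralogue Rnf43 had 100 reads over the libraries of cultures 10 and 11 and 1 read over those of cultures 35B and 35C. In another list, of primed and early lineage genes, the 3 largest falls were Lef1, T (Brachyury) and Cdx2. T was at 15.4 to 18.7 RPM in cultures 10 and 11 and at 0.84 to 2.09 in cultures 35B and 35C, and Cdx2 at 16.6 to 20.1 against 1.011 to 2.67. Immediate early genes of the joint list went both ways: Egr1 (-1.25) and Fos (-0.65) fell, and Ier2 (0.23), Junb (0.22), Myc (0.20) and Ier3 (0.20) rose. The feedback phosphatase Dusp6 and the ERK-dependent factor Etv5 had differences of -0.02 and 0.09 and did not pass, whereas Etv4 was lower (-0.34). Egr1 was uneven in cultures 35B and 35C, at 8.69 and 13.1 RPM in the 35B libraries and 1.73 and 1.90 in the 35C libraries. The 6 higher genes were Id1, a BMP target (0.31), Etv1, Ier2, Junb, Myc and Ier3.

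Most genes of the matrix list were lower as well. Of 27 laminin, collagen and matrix genes 17 were lower and 5 higher, with a median of -0.23. Lama1, the main laminin α chain of the early embryo, stood at 332 to 379 against 132.1 to 163.0 RPM (difference -1.14), perlecan (Hspg2) at 686 to 781 against 259 to 409 (-1.13), and fibronectin (Fn1) at 1913 to 2625 against 1130 to 1584 (-0.74). The integrin gene Itga5 went the other way, at 13.4 to 24.0 against 39.4 to 53.2 (difference 0.79). Plod1 (0.37), Itga6 (0.20) and Nid1 (0.20, with overlap between the sets) were also higher. These transcripts are long (median 5595 bases), and with correction for length and GC content 13 were lower and 5 higher with a median of -0.15. Of the fibroblast markers, the collagen gene Col1a2 had 147 reads over the libraries of cultures 10 and 11 and none in cultures 35B and 35C, at least 42.4-fold lower if 3 reads are taken as the limit over the set. Pdgfrb was also lower (-0.28), and Thy1 was higher.

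**Figure D3:**
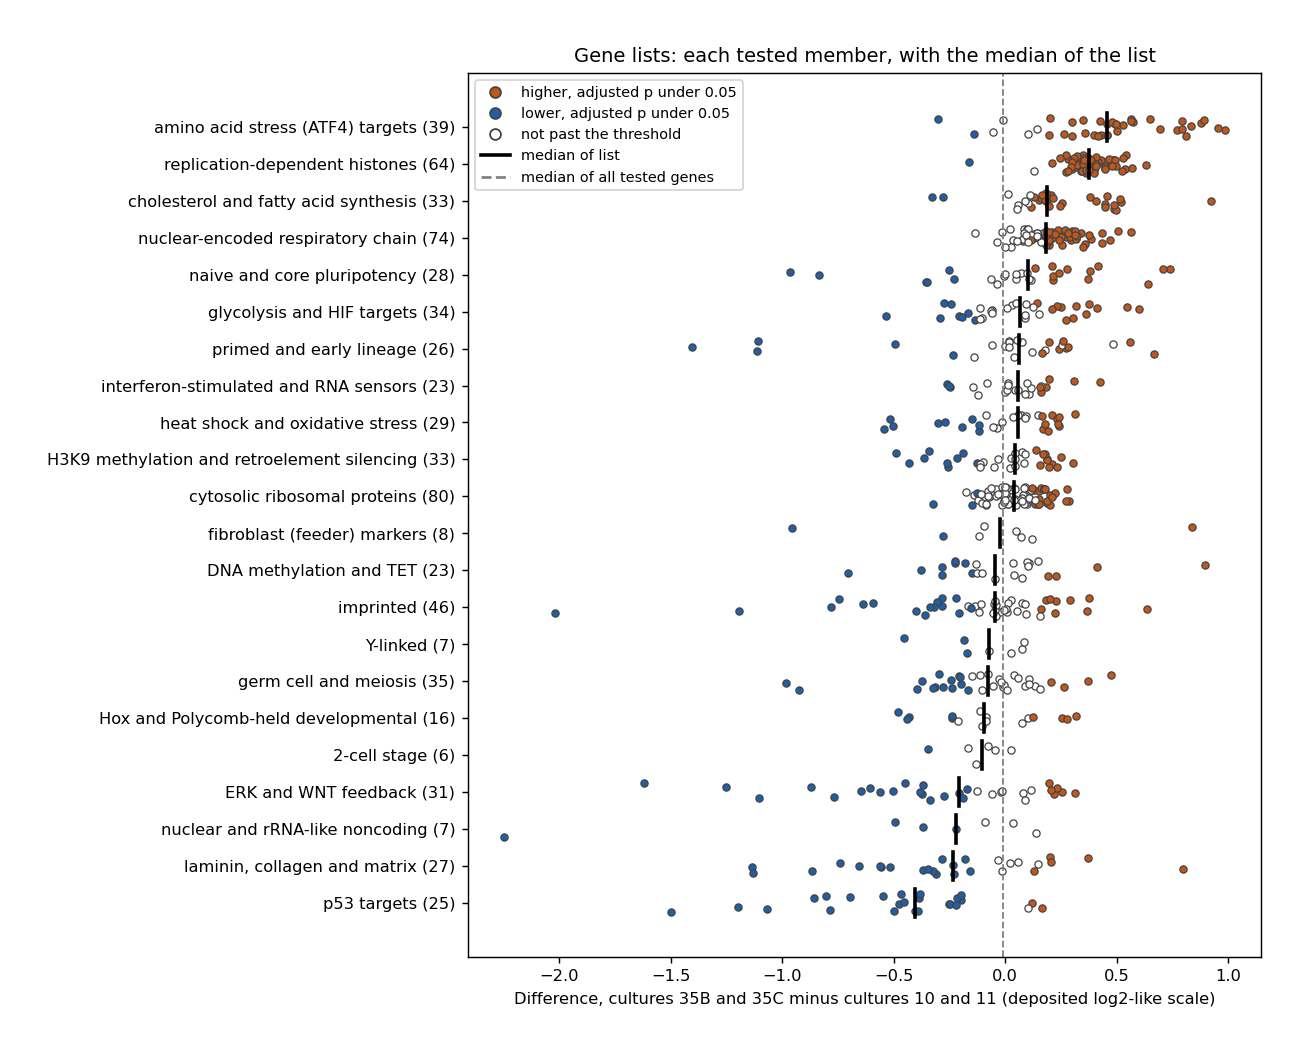
Each row is a gene list with the number of its tested members, each point is a member, and the x axis is its difference between the sets on the deposited log2-like scale, with black bars for list medians and a dashed line for the median of all genes. The ATF4, histone, sterol and respiratory chain lists lie to the right, with medians of 0.46, 0.38, 0.19 and 0.18, and the p53, matrix and joint ERK and WNT lists to the left, with -0.40, -0.23 and -0.21.

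Pluripotency genes did not move as a block. Of 28 tested, 12 were higher, above the share of all genes, and 6 lower, close to it, with a median of 0.10. Tdgf1 (Cripto) stood at 68.6 to 149.5 against 164.5 to 235.8 RPM (difference 0.74), Utf1 and Nr0b1 were higher by 0.71 and 0.64, and Pou5f1 was at 783 to 924 against 1102 to 1224 (0.42). Dppa3 (Stella), a maternal factor that guards against TET3 oxidation and UHRF1 action, was at 15.8 to 30.7 against 2.90 to 8.64 (difference -0.96). Gbx2 was lower by 0.83 in size and Sox2, Klf4, Tfcp2l1 and Klf5 by 0.23 to 0.35. Nanog, Esrrb and Klf2 did not pass, with differences of 0.07, 0.05 and -0.01. Of 26 primed and early lineage genes 8 were higher, above the share of all genes, and 5 lower, close to it. Otx2, a factor of the formative state, was at 2.42 to 6.36 against 11.4 to 19.4 RPM (difference 0.67). Tubb3 was higher by 0.56 and Nodal by 0.28.

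Of 35 germ cell and meiosis genes 14 were lower and 4 higher, with a median of -0.08, so the share of lower genes was above and that of higher genes below the share of all genes. In controls alone 3 of the 35 were lower and 2 higher, and the share of lower genes was then not above that of all genes. Rec8, a meiotic cohesin, stood at 23.7 to 26.9 against 3.56 to 7.15 RPM (difference -0.98, standard error 0.06). Stk31, a germ cell kinase, was lower by 0.40 in size, and its sets overlapped across treatments. The higher genes were Sycp3, of the synaptonemal complex, at 3.85 to 5.35 against 8.24 to 14.3 (difference 0.48), Stag3, another meiotic cohesin (0.37), Mael, of the piRNA pathway (0.26), and Dmc1, a meiotic recombinase (0.21). All are low genes and none but Rec8 and Dazl differed by more than 0.5 in size.

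Promoters of such genes often hold the E-box CACGTG, the core bound by factors of the MYC, MAX and USF families. It was found in 7.15% of all RefSeq promoter windows and in 15 of the 33 tested germ cell genes with a window (45.5%), against 11.8% of all tested genes. Among the germ cell genes with the largest differences it was present in Sycp3, which holds it at 2 places, Stag3, Mael and Stk31, and these windows are shown with the E-box in capitals.
Sycp3, chr10:88459512-88459541, plus strand: ccgttggctccCACGTGagaacgggcatgg
Sycp3, chr10:88459533-88459562, plus strand: cgggcatggagCACGTGctaggaggcgggg
Stag3, chr5:138280328-138280357, plus strand: gcgctggagccCACGTGacaggactgcaca
Mael, chr1:166238949-166238978, minus strand: accaggcctacCACGTGacaatccccgcct
Stk31, chr6:49395473-49395502, plus strand: ggccggccaccCACGTGaccagggctgcgc
Of the 15 genes with an E-box 3 were higher and 5 lower, with a median of -0.03, and of the 18 without one 1 was higher and 8 were lower, with a median of -0.11. Rec8 and Dazl, which fell most, were in the latter group.

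Imprinted genes were lower more often than higher. Of 46 tested, 16 were lower and 9 higher, the former above the share of all genes and the latter close to it, and the median was -0.05. After Peg10 came Plagl1, a zinc finger gene expressed from the paternal copy, at 72.1 to 85.0 against 21.1 to 26.5 RPM (difference -1.19), and Igf2r, a maternally expressed gene (-0.78). Sgce, the neighbour that shares its imprinted promoter region with Peg10, was lower by 0.59 in size, and Peg3 by 0.64. Gnas (0.63), Grb10 (0.38) and Phlda2 (0.37) were higher.

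Of 23 genes of DNA methylation and its removal 4 were higher, close to the share of all genes, and 8 lower, above it. Apart from Tet2, the KRAB zinc finger gene Zfp57, which protects imprints, stood at 158.5 to 234 against 261 to 303 RPM (0.41), and Uhrf2 stood at 117.6 to 192.2 against 74.2 to 92.2 (-0.71). The methyltransferases Dnmt1 and Dnmt3a were lower by 0.15 and 0.18 in size, and Dnmt3b and Dnmt3l did not pass. In the list of H3K9 methylation and retroelement silencing 11 of 33 were higher and 9 lower, both above the share of all genes. Setdb1, the H3K9 methyltransferase of ERVs, stood at 355 to 426 against 250.5 to 319 (difference -0.43), and its partner Atf7ip was lower by 0.49 in size, whereas Trim28, the co-repressor that recruits Setdb1, was higher (0.30).

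In the remaining lists called genes went both ways or were few. Of 34 glycolysis and HIF genes 12 were higher and 8 lower, the former above the share of all genes, led by Vegfa (0.60) and the glucose transporter gene Slc2a3 (-0.54). Of 29 heat shock and oxidative stress genes 10 were higher and 9 lower, both above the share of all genes, with a median of 0.06. Among them Hsp90ab1, at 4855 to 5025 against 3445 to 3553 RPM, was lower by 0.50 in size, a difference that was 0 under quantile normalization. That scaling gives equal values to a gene of equal rank in every library, so such a 0 does not test the level. Of 23 interferon-stimulated genes 6 were higher, somewhat above the share of all genes, and 3 lower, below it, at most by 0.43 (Ifitm2). Of 16 developmental and Polycomb genes 4 were higher and 5 lower, both somewhat above the share of all genes, with a median of -0.09. Of 6 genes of the 2-cell stage that could be tested, Zfp750 alone passed (-0.35). Of 7 Y-linked genes 3 were lower, with Kdm5d at -0.46. Of 7 genes in a list of nuclear and rRNA-like noncoding RNAs 4 were lower, with a median of -0.22 (-0.07 after correction for length and GC content). Lars2 had been placed in that list, and the others were Neat1, Tsix and Xist, lower by 0.22 to 0.49 in size.

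Along the chromosomes the difference was slight. The median deviation of a chromosome's genes differed between the sets on 14 of 20 chromosomes (exact permutation test over 70 labellings, two-sided, adjusted p = 0.04082 for each). Before adjustment this p was 0.0286, the smallest that these labellings can give. They treat the libraries of 1 culture as independent, and over whole cultures the smallest possible p is 0.333. The medians were between 0.01 and 0.07 in size, furthest from 0 on X (-0.07), chromosome 6 (-0.06) and chromosome 16 (0.05). With quantile normalization 12 chromosomes passed, of which 10 were higher against 5 in the deposited scaling, and the sign of the median turned on chromosomes 1 and 9 among those that had passed. With 6 of the 8 libraries left out in turn, or among genes of above-median level, no chromosome passed. On X, the genes furthest down were Tex13, Xpnpep2 and Rhox13, and on chromosome 16 those furthest up were Cryzl1, Rsl1d1 and Slc25a1.

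No difference between the set effects in control and vitC libraries passed the test across genes. The term for set by treatment was past the threshold for 0 of 14631 genes (limma, smallest adjusted p = 0.2093; 601 genes at an unadjusted p under 0.05), and edgeR on the recovered reads also called 0 (426 of 12337 at an unadjusted p under 0.05). With culture as a fixed block, which compares each vitC library with its own control, 13 genes passed (0.0889%). Peg10 and Lars2 were among them, with set differences of -1.80 and -2.68 in controls and -2.23 and -1.81 in vitC libraries (adjusted p = 0.02855 for each, limma with the block).

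In the repeats, rRNA-annotated repeats were the largest class. These made up 42.0 to 51.5% of subfamily counts in cultures 10 and 11 and 60.0 to 63.1% in cultures 35B and 35C. LINEs made up 5.54 to 9.20% and 3.60 to 5.02%, LTR elements 8.65 to 12.1% and 6.10 to 7.70%, SINEs 11.97 to 17.0% and 9.23 to 11.9%, and DNA transposons 3.07 to 4.82% and 2.30 to 3.22%. None of the 11 classes passed the exact permutation test after adjustment (smallest adjusted p = 0.05238, two-sided, for rRNA, LINE, LTR, SINE, tRNA and scRNA, whose libraries did not overlap between the sets). The control of culture 10 had 6.71% snRNA against 3.40 to 3.61% in its set, and the control of 35C had 6.95% against 2.52 to 4.63% in its own. Without the control of culture 10, 7 classes passed (adjusted p = 0.0449 in the exact permutation test), rRNA higher and LINE, LTR, SINE, DNA, tRNA and Other lower, and the same 7 passed in uniquely mapped counts. With any other single library left out, no class passed. As a share of LINE, SINE, LTR and DNA counts only, the sets overlapped in all 4 classes when treatments were mixed. Means were 20.2% and 18.0% for LINE, 39.6% and 42.1% for SINE, 28.9% and 28.6% for LTR and 11.3% and 11.3% for DNA. Within each treatment LINE and SINE did not overlap. LINE was at 18.53 to 18.96% against 16.95 to 17.46% in controls and at 21.32 to 22.12% against 18.74 to 18.95% with vitC. SINE was at 40.94 to 41.33% against 43.47 to 43.71% in controls and at 36.72 to 39.45% against 40.57 to 40.58% with vitC. LTR overlapped within each treatment, and DNA overlapped in controls but not with vitC. As a share of the aligned library, rRNA rose from a mean of 17.9% to 32.2% while LINE went from 3.01% to 2.32%. Here rRNA stood at 16.05 to 22.6% in cultures 10 and 11 and at 31.6 to 32.9% in cultures 35B and 35C, without overlap. No class passed (adjusted p = 0.3143 for rRNA, exact permutation test), but a class that separates alone cannot pass after adjustment over 11 classes. How completely rRNA had been removed from each library was not tested.

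**Figure D4:**
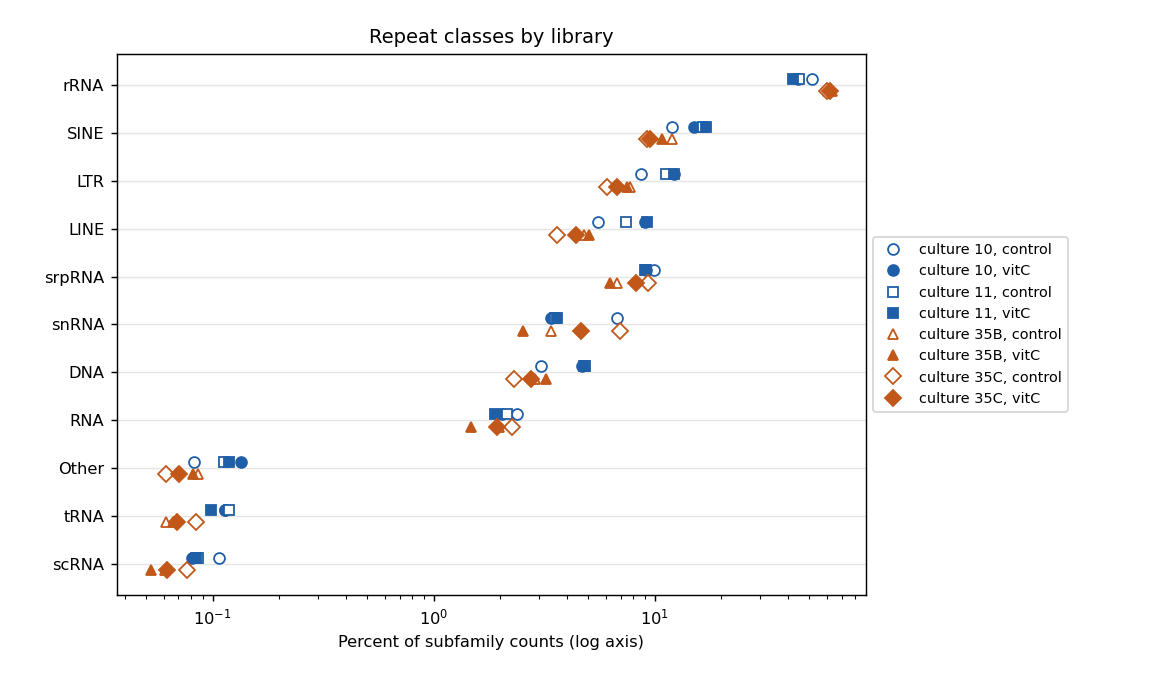
Each row is a repeat class and each point a library, with the percent of subfamily counts on a log x axis and symbols as in the plot of single genes. The rRNA points of cultures 35B and 35C lie at 60.0% and above, to the right of those of cultures 10 and 11, and the points of LINE, LTR and SINE lie to the left.

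Of 920 repeat subfamilies tested with edgeR on TMM-scaled counts, 9 were higher (0.978%) and 44 lower (4.78%) in cultures 35B and 35C. When counts were scaled by the aligned library size, the median of all subfamilies moved from 0.00 to -0.23 and 131 were lower and 9 higher, so changes are given relative to the median subfamily. Both rRNA-annotated subfamilies that passed went opposite ways: LSU-rRNA_Hsa, of the large subunit, was higher with a log2 fold change of 1.12 (standard error 0.20, adjusted p = 0.01137), whereas SSU-rRNA_Hsa, of the small subunit, was lower by -2.84 (standard error 0.57, adjusted p = 0.01948). The spread within each set was wide.

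The lower subfamilies were mostly ERVs. Of 257 ERVK subfamilies 25 were lower and 1 higher, and of 95 ERV1 subfamilies 8 were lower, with medians of -0.12 in each family. RMER16-int, an ERVK, was at 1018 to 1500 CPM in cultures 10 and 11 and at 494 to 666 in cultures 35B and 35C (-1.10 on the log2 scale with a standard error of 0.07, adjusted p = 2.992e-05 in edgeR). It was the only subfamily called in controls alone. RLTR1B-int, an ERV1, was at 3753 to 5708 against 1691 to 2231 (-1.26, standard error 0.11), and LTRIS2, an LTR of the same group, at 776 to 1115 against 369 to 577 (-0.98). MuRRS4-int (-0.90) and RLTR13C3 (-0.88) completed the 6 largest falls among subfamilies whose libraries did not overlap between the sets, and in uniquely mapped counts each of these 5 elements also passed with log2 fold changes of -1.43 to -0.68. Among those with overlap, named after their values were seen, MURVY-int (-1.17) and RLTR13D4 (-1.02) were also lower by at least 1, as was IAPEy-int, described below.

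A single ERVK went up: MMERVK10C-int stood at 870 to 2144 CPM in cultures 10 and 11 and at 2492 to 5560 in cultures 35B and 35C, or 1.49 higher on the log2 scale (edgeR, standard error 0.29, adjusted p = 0.01774). It was carried mostly by uniquely mapped counts (84.4%, against 5.97% for RMER16-int), in which the log2 fold change was 1.82. It was not called in controls alone or with 1 value per culture. Libraries were uneven: the control of culture 10 (2144) and the 35C libraries (5560 and 3592) stood above the rest of their sets. The other largest rises without overlap were the old elements MER45B (0.81), L1MEi (0.69), LTR40b (0.59) and LTR41 (0.40), which had few counts apart from L1MEi. LTR40b and LTR41 were lost in most alternatives. With overlap, and named after its values were seen, the DNA element Ricksha_c was higher (1.06) at a mean of 20.5 counts per library, and was not called with culture as a block (adjusted p = 0.0526 in limma on voom values).

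Of 6 L1 subfamilies named L1Md 3 were lower and none higher, with a median of -0.26. L1Md_A, whose promoter monomers define the A type, was at 7591 to 9247 CPM in cultures 10 and 11 and at 4349 to 5882 in cultures 35B and 35C (-0.74 on the log2 scale with a standard error of 0.09, adjusted p = 0.001926 in edgeR), with no overlap. L1Md_T was at 7994 and 8492 against 6209 and 6916 in controls and at 12780 and 14500 against 10110 and 11100 with vitC (-0.35, standard error 0.07), lower within each treatment although vitC libraries of cultures 35B and 35C were above the controls of cultures 10 and 11. L1Md_F3 passed as well (-0.29) but not with culture as a block (adjusted p = 0.05097 in limma), which leaves 2 of 6, and L1Md_Gf, L1Md_F and L1Md_F2 did not, with -0.24, -0.09 and -0.04. In uniquely mapped counts, which held 4.90% of the L1Md_A total, L1Md_A passed (-0.44) and L1Md_T did not (-0.25). In all, LINEs had 4 lower and 1 higher of 146, and the share of lower ones was below that of all subfamilies (4.78%).

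Of 22 IAP subfamilies 4 were lower, among them IAPEy-int (-1.19), IAP-d-int (-0.65) and IAPLTR1_Mm (-0.34), whose libraries overlapped between the sets. IAPEy-int rested on the vitC libraries, at 86.9 and 104.6 CPM in cultures 10 and 11 and 20.2 and 36.3 in cultures 35B and 35C, while its controls were at 24.2 and 26.9 against 15.6 and 21.9. Of 5 ETn/MusD subfamilies ETnERV2-int was lower (-0.39). With culture as a block IAPLTR1_Mm (limma adjusted p = 0.06011) and ETnERV2-int (0.05736) were no longer called. None of 3 MERVL subfamilies and none of 10 B1 and B2 SINE subfamilies passed, with medians of 0.19 and 0.10, nor did any of 37 SINEs, 10 snRNAs and 25 tRNAs. The snRNA and tRNA medians were 0.62 and 0.58 on this scale, while the tRNA share of all subfamily counts was lower.

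**Figure D5:**
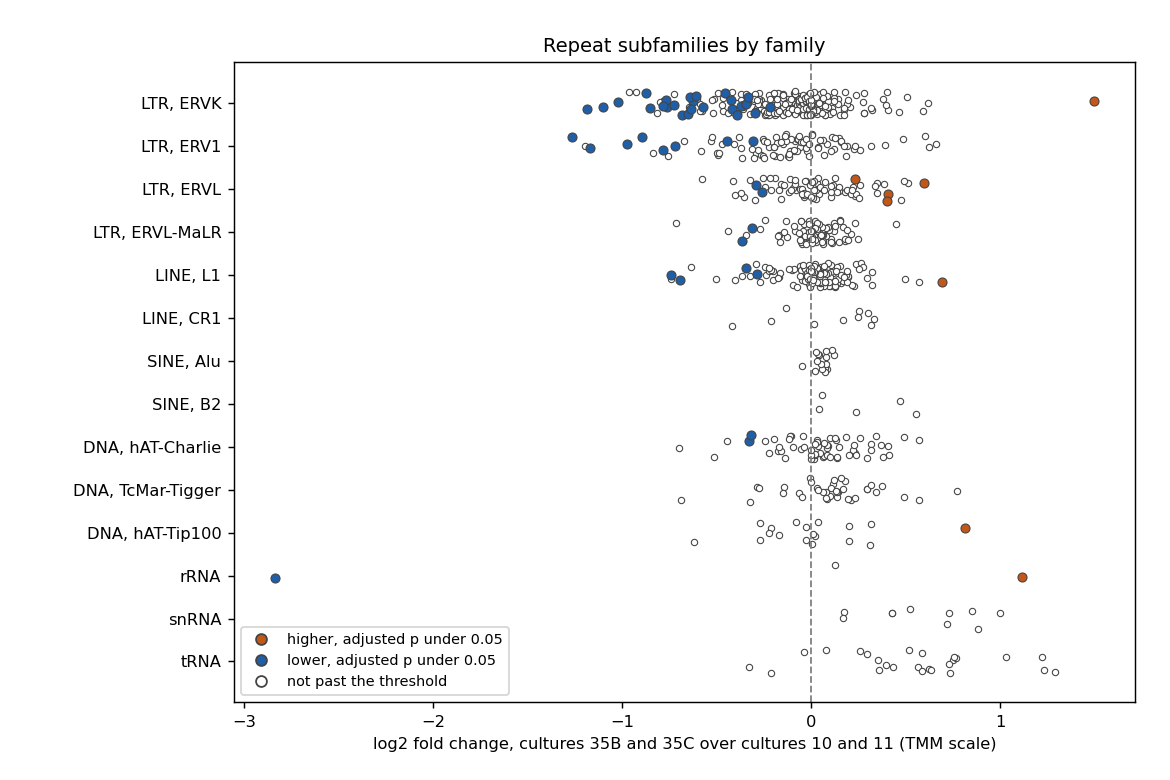
Each row is a repeat family, each point a subfamily, and the x axis is its log2 fold change between the sets on the TMM scale, with filled points past the threshold. The filled blue points lie mostly in the ERVK and ERV1 rows, with MMERVK10C-int at 1.49 and SSU-rRNA_Hsa at -2.84 as the outermost points.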

How the data were processed

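RNA-seq of 8 mESC libraries was used, and the 2 hESC libraries were not analysed here. The authors mapped reads to mm10 and counted genes and repeat subfamilies with SQuIRE (version not given in the sources used here), and the processing notes also list Trim Galore, HISAT2 and DESeq2. The gene table that the authors deposited holds values after variance stabilisation, on a scale close to log2. For repeats, the authors deposited expected counts, in which reads with several locations are shared among copies, and uniquely mapped counts. Expected counts were rounded, and 2 other columns of values were not used. Inverting the transformation gave whole reads (within 0.05 read) for 100% of 116385 values above the lowest, taking the smallest step of a library as 1 read. These recovered reads gave the RPM values.

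Set differences (35B and 35C minus 10 and 11) were fitted with limma 3.58.1 on deposited values (a gene needed 4 or more libraries above the floor of the table) and with edgeR 4.0.16 (filterByExpr, TMM, quasi-likelihood) on subfamily counts, in R 4.3.3, with terms for set and treatment and Benjamini-Hochberg adjustment over all features at 0.05. Class shares and chromosome medians were compared by exact permutation tests. Scripts were tested on simulated data drawn independently for each library, which cannot test the dependence of libraries within a culture. Gene positions are those of GENCODE M21 or RefSeq, both on the mm10 assembly.

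The comparison, its 4 given genes and the gene lists were chosen with earlier results of these data known. Named are the 4 given genes, the 12 largest differences each way among called genes whose libraries do not overlap and that keep their direction in controls alone and vitC libraries alone, up to 3 called members of each list each way, the 3 largest of each chromosome past the threshold, the 6 largest called subfamilies each way with a mean of at least 10 counts and no overlap, all L1Md, and up to 3 called IAP, ETn/MusD, MERVL and B1 or B2 subfamilies. A few genes that this rule names are not reported here. Further genes named for their role in a list were chosen after their values were seen. Replicate numbers pair the control and vitC library of a culture: within a set, the difference between the cultures in controls correlated across genes with that in vitC libraries at 0.194 and 0.247. The main fits hold no block, and culture as a block, 1 value per culture, other scalings, filters and tools, and each library and culture left out were alternatives.

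Depth limits precision: the vitC library of culture 35B had the fewest gene reads. Reads are not independent molecules, so limits cover counting error only.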

Additional observations from a re-analysis of the deposited data

Results flagged for a closer look

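The control library of culture 10 lay far from the other 3 libraries of its set in 3 class shares. Its DNA transposon share was 3.07% against 4.70 to 4.82%, its snRNA share 6.71% against 3.40 to 3.61%, and its srpRNA share 9.86% against 9.02 to 9.12%. Chance alone marks about 1 in 20 such groups, and 96 groups were looked at.

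For 4 of the named genes, among 13 genes in all, the set difference itself differed between control and vitC libraries when culture was a fixed block, although not without it. The term was -0.43 for Peg10 and -0.59 for Tgfbr3, whose set difference was larger with vitC (-1.40 in controls and -1.98 with vitC for Tgfbr3). It was 0.87 for Lars2 and 0.72 for Gm15564, whose set difference was smaller with vitC (-2.26 and -1.54 for Gm15564).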

How the results depend on the processing

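The 25 genes with the largest or given differences kept their direction and their call in all 593 values computed under the alternatives. All but Dazl met a rule of large, called differences without overlap and of the same direction in controls alone and vitC libraries alone. The alternatives use the same libraries, so much of this result followed from the choice. Of 131 other named genes, 170 of 3094 values were no longer past the threshold and none reversed. Of 22 subfamilies, 150 of 480 values lost the threshold, 3 gained it, and L1Md_F2, not called, went to 0.0039 in controls alone (-0.04 otherwise). The count of genes, 5924, was 2471 in controls alone, 3219 in vitC libraries alone and 46 for differences of at least 1, and 4173 to 5747 without each library or culture. With the replicate block it was 5404, and no named gene with a largest difference changed its call. The count of subfamilies, 53, was 39 with the replicate block, 21 with the culture as the unit, 1 in controls alone, 25 in vitC libraries alone, 14 with no treatment term, 140 with the aligned library size (131 of them lower), 25 in uniquely mapped counts, 9 for log2 fold changes of at least 1, and without each library or culture it ranged from 24 to 51 (32 without the vitC library of 35B, 33 without either the vitC library of 10 or that of 35C, 35 without the control of 35C, and 25, 24 and 28 without cultures 10, 11 and 35C). The interaction count, 0, became 13 with the replicate block and stayed 0 without each library. The count of chromosomes, 14, was 0 among genes of above-median level and 0 to 13 without each library. The count of classes, 0, was 7 in uniquely mapped counts and 0 to 7 without each library, where the 7 came without the control of culture 10. Adjusted permutation p-values can pass only when most classes or chromosomes separate completely, and with 2 libraries or cultures a side the smallest p is 0.333, so controls alone give values and no test there. The cause of these changes was not tested beyond the smaller number of libraries or features that some settings hold. Libraries of few reads and subfamilies of few counts limit what could be detected.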
